A study of Mus musculus with 56 samples.

Results

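The interferon regulatory factors described here are 7 genes, Irf1, Irf2, Irf3, Irf5, Irf7, Irf8 and Irf9, chosen by gene name from the 30199 gene names on a whole genome mouse array. They were measured in whole blood of C57BL/6 mice, 10 to 12 weeks old, that had received 200 kBq of strontium-90 (90Sr) as chloride in 0.05 mL through the tail vein, or the saline vehicle. 90Sr emits beta particles and settles in bone, so that the marrow is irradiated continuously at a falling rate. Blood was taken at day 4, 7, 9, 25 or 30 from separate control and 90Sr mice, 4 of each at day 4 and 6 of each at the other days, which gives 10 groups, 56 mice and 1 array per mouse. Per the published methods the injected solution also held a small share of another strontium isotope, a tracer for whole-body counting. All mice were of one inbred strain, and apart from this tracer no other treatment or allele was given for any group.

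Interferon regulatory factors are transcription factors that bind the repeated GAAA element found upstream of genes induced by interferon and by microbial nucleic acid. Irf3, Irf5 and Irf7 are activated by phosphorylation below Toll-like receptors and cytosolic nucleic acid sensors and switch on interferon genes. Irf9 joins STAT proteins, among them Stat2, in the complex that carries the type I interferon signal to the nucleus, whereas Irf1 and Irf2 act on the same elements as an activator and, in many settings, its antagonist. Irf8 is a lineage factor of B cells, monocytes and dendritic cells, and in blood its transcript is carried mainly by these cells.

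The upstream sequences of these genes are shown for the elements through which the family and its partners act. RefSeq windows running from 250 bases before to 50 bases after the transcript start (build GRCm38.p6) were found for 7 of the 7 genes, 10 windows in all. The interferon element was searched as 2 GAAA repeats with any 2 bases between them, and the element bound by STAT dimers as TTCNNNGAA, on both strands, and the matches of the 2 elements did not overlap in these windows. The first was present in 3.44% and the second in 8.3% of the 32851 mouse windows of this length. Matches, in capitals below, lay in 1 window each of Irf1, Irf2 and Irf8, and none of these letters were found in the windows of Irf3, Irf5, Irf7 and Irf9. The Irf1 stretch is at chr11:53769909-53769947, the Irf2 stretches are at chr8:46739495-46739528 and chr8:46739506-46739544, and the Irf8 stretches are at chr8:120736172-120736210 and chr8:120736190-120736228, all on the plus strand.
Irf1, match 90 bases before the start: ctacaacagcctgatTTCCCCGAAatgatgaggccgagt
Irf2, match 241 bases before the start: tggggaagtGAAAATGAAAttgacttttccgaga
Irf2, match 224 bases before the start: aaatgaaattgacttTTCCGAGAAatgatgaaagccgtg
Irf8, match 171 bases before the start: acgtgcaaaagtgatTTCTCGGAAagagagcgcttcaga
Irf8, match 153 bases before the start: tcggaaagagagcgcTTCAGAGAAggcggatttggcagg

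The 7 genes were carried by 8 probes of 60 bases, all past the detection filter, and none was saturated on any array. Signals are given as log2 signal relative to the median of the non-control spots of the same array, so that a value of 1 is 2-fold above that median. The probes of Irf1, Irf2, Irf3, Irf7, Irf8 and Irf9 that are described below were well above local background on 56 of 56 arrays and that of Irf5 on 55. A second Irf1 probe was well above background on 2 of 56 arrays only. Its fitted change, at signals near background, had the opposite sign to that of the first probe at all 5 days. By the call defined below it was higher at days 9 and 25 (1.65 and 1.45), but at such signals no level is read from it. The Irf7 probe carries the only member whose change took both signs over the 5 days with median scaling. It lies on the minus strand of chr7:148450664-148451014 (mm9), a stretch of 351 bases for 60 bases of probe, and therefore crosses an intron. It is printed because the Irf7 values rest on this single probe.
Irf7 probe: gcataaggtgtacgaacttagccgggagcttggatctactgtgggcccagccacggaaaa

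Several facts of the whole series bear on these genes. Control arrays had 17809 to 24698 spots well above background and 90Sr arrays had 14389 to 22524, so the 90Sr arrays were dimmer as a group. The median change over all 18796 genes tested was between -0.10 and 0.12 on the log2 scale, but it moved to between 0.31 and 0.47 when arrays were scaled on their 75th percentile, so each change below is relative to the scaling used. Defining markers of B cells, T cells, monocytes and red cells were all measured. The mean of 12 B cell markers changed by -1.93 to -1.51 on the log2 scale in 90Sr blood, that of 12 monocyte markers by -1.12 to -0.95, that of 12 T cell markers by -0.47 to -0.10, and that of 12 erythroid markers by 0.52 to 1.12. The erythroid markers include the globin genes Hbb-b1 and Hba-a1, and globin transcripts had been reduced before labelling. In whole blood, fewer cells of a type and less of a transcript per cell cannot be told apart. At day 4 each group occupied a slide of its own, so slide and treatment cannot be told apart there; at the other days 1 slide held 2 mice of each group. Controls of a day shared 1 scan day, but 4 of the 6 90Sr arrays of day 7 and of day 30 were scanned on another. At day 7 the log2 spike-in signal was 9.99 to 10.3 on control arrays, 10.2 to 10.5 on the 2 90Sr arrays scanned with them and 12.5 to 12.8 on the other 4, so day 7 values with spike-in scaling move with the scan day; at day 30 all 12 arrays lay between 12.6 and 13.3.

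Most of the family was lower in 90Sr blood from the first day measured to the last. A gene was called when limma gave an unadjusted p under 0.001 and the change was at least 2-fold. By this call 5, 5, 5, 4 and 4 of the 7 genes were lower at the 5 days in order, where 17.3%, 12%, 13.7%, 19.7% and 16.1% of all genes tested were called lower. None of the 7 was called higher on the brightest probe of each gene. Irf3, Irf5, Irf8 and Irf9 were called lower at all 5 days, as were 6.27% of all genes, and Irf1 was called at 3 days. Irf2 and Irf7 were called at no day. The median change of the 7 genes was -1.44, -1.15, -1.02, -1.41 and -1.14 at the 5 days, against -0.01, 0.00, -0.08, -0.10 and 0.12 for all genes. With arrays scaled on the 75th percentile the counts were 3, 2, 2, 2 and 3, and the changes of Irf2 and Irf7 at day 9 turned positive. Irf5 and Irf8 were called lower at all 5 days under both scalings. With the 75th percentile Irf3 was called at day 30 only (-1.25), Irf1 at day 4 only (-1.09) and Irf9 at no day (-0.97 to -0.63). The calls of Irf9 at all 5 days, of Irf3 at days 4, 7, 9 and 25 and of Irf1 at days 7 and 9 were therefore lost with the 75th percentile. Quantile normalisation called 4, 4, 3, 2 and 5 of the 7 genes lower at the 5 days. The scaling also moved the split of calls over all genes, since 89.2%, 82.3%, 75.6%, 77.8% and 51% of the called genes were lower at the 5 days with the median and 30%, 24.3%, 27.9%, 20.3% and 37.1% with the 75th percentile.

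**Figure D1:**
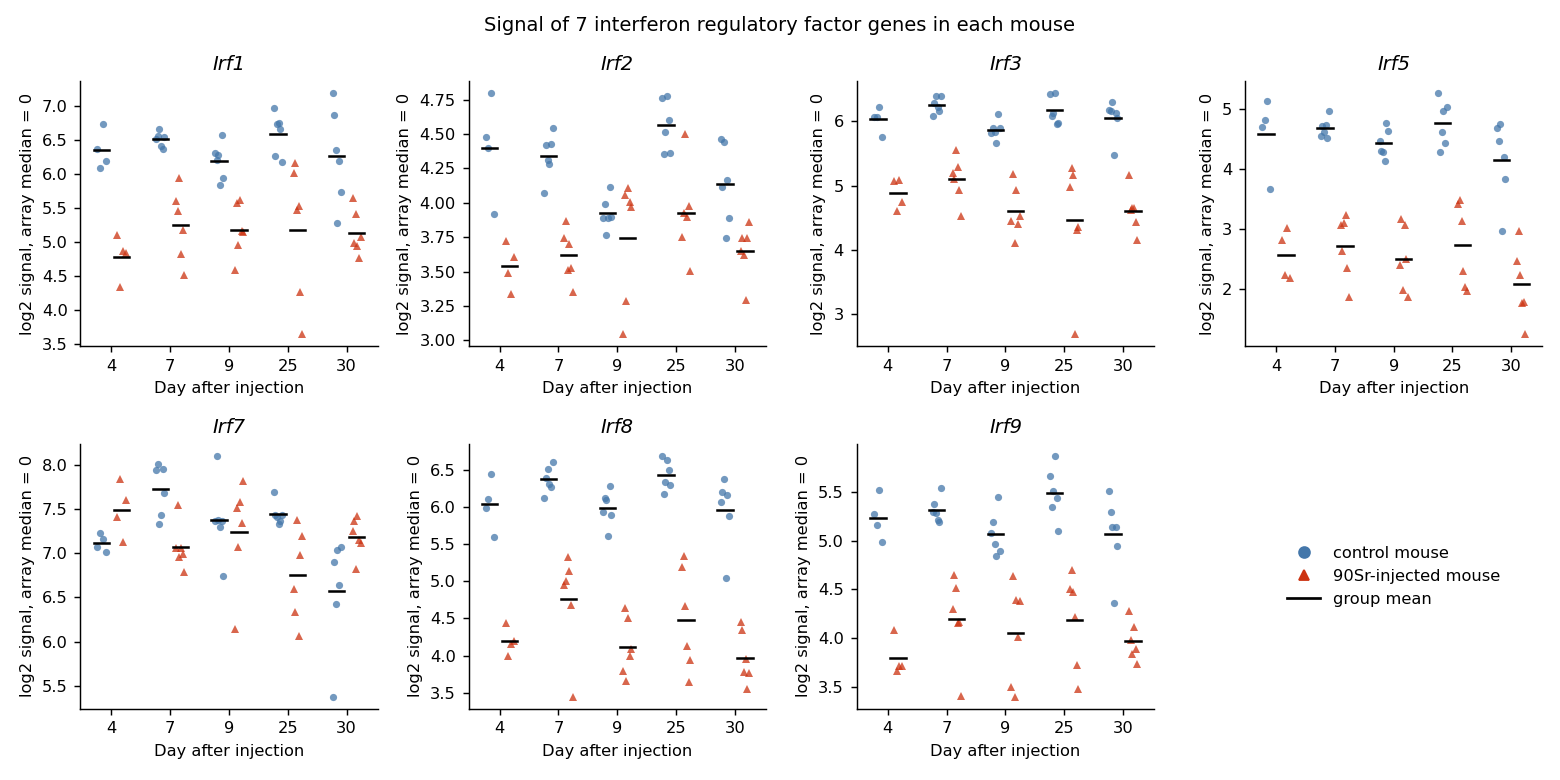
Log2 signal relative to the array median (vertical axes, which differ between panels) of 7 interferon regulatory factor genes in each of 56 mice, by day after injection (horizontal axes), with circles for control mice, triangles for 90Sr mice and black lines for group means. The groups of Irf8 did not overlap at any of the 5 days, and those of Irf7 overlapped at each of them.

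Irf8 directs the development of monocytes, dendritic cells and B cells. At day 4 its log2 signal was 5.99, 6.11, 6.45 and 5.60 in the control mice and 4.43, 4.00, 4.16 and 4.19 in the 90Sr mice. At day 7 the control mice ran from 6.13 through a median of 6.36 to 6.61, and the 90Sr mice from 3.44 through 4.98 to 5.32. Every 90Sr mouse lay below every control mouse at both days.
At day 9 the range was 5.62 to 6.28 with a median of 6.01 in controls, and 3.66 to 4.64 with a median of 4.04 after 90Sr. At day 25 controls ran from 6.17 to 6.69 with a median of 6.42, and 90Sr mice from 3.64 to 5.34 with a median of 4.39. At day 30 the values were 5.05 to 6.39 with a median of 6.12 and 3.55 to 4.46 with a median of 3.86. The 2 groups again did not overlap, and the absence of overlap in this direction held for 32.2%, 23.6%, 18.5%, 27.6% and 13.3% of all genes at the 5 days.
The log2 change of Irf8 was -1.84 ± 0.19 (SE, n = 4 per group) at the first day and -1.62 ± 0.26, -1.88 ± 0.21, -1.95 ± 0.27 and -1.99 ± 0.24 at the later 4 (n = 6 per group), which is 3.07-fold to 3.96-fold lower, with limma adjusted p values of 1.73e-04, 2.96e-04, 2.77e-05, 1.56e-04 and 5.71e-05. Ordered by mean, the 90Sr groups ran from 3.97 ± 0.36 (SD, day 30) to 4.76 ± 0.68 (day 7) and the control groups from 5.96 ± 0.47 (day 30) to 6.44 ± 0.20 (day 25). Within each of these runs neighbouring means differed by less than the larger of their SDs, and the step of 1.20 between the highest 90Sr mean and the lowest control mean was larger than either SD. The effect did not pass the test for a difference between days (adjusted p = 0.886).

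Irf5, which acts below the endosomal Toll-like receptors and is abundant in B cells and myeloid cells, showed the largest mean change of the 7 genes under median scaling. Its log2 signal at day 4 was 4.70, 4.81, 5.14 and 3.68 in control mice and 2.82, 2.23, 3.03 and 2.20 in 90Sr mice. At day 30 control mice ran from 2.97 through a median of 4.34 to 4.75, and 90Sr mice from 1.26 through 2.02 to 2.97, with 1 of the 6 not well above background. The groups were apart at days 4, 7, 9 and 25, and at day 30 5 of the 6 90Sr mice lay below every control mouse.
The log2 change was -2.01 ± 0.32 (SE), -1.97 ± 0.21, -1.93 ± 0.24, -2.04 ± 0.30 and -2.07 ± 0.33 at the 5 days, with limma adjusted p values between 5.79e-05 and 9.46e-04. These are falls of 3.82-fold to 4.2-fold, and the test for a difference between days gave an adjusted p of 0.998.

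Irf3 and Irf9 fell less far. Irf3 is the constitutive sensor-activated member that starts the interferon response, and its log2 signal at day 4 was 6.07, 6.06, 6.22 and 5.76 in controls and 5.08, 4.6, 5.09 and 4.75 after 90Sr. Its log2 change was -1.15 ± 0.16 (SE), -1.15 ± 0.15, -1.27 ± 0.20, -1.71 ± 0.36 and -1.44 ± 0.20 at the 5 days, with adjusted p values between 9.62e-05 and 1.14e-03. The widest group was that of 90Sr mice at day 25, which ran from 2.69 to 5.27 with a median of 4.67, and without its lowest mouse the change was still called, at -1.35.
Irf9, the DNA-binding part of the complex formed with Stat2, changed by -1.44 ± 0.16, -1.12 ± 0.18, -1.02 ± 0.23, -1.31 ± 0.22 and -1.1 ± 0.20, with adjusted p values between 1.98e-04 and 2.59e-03. Control mice ran from 4.36 to 5.87 over all days and 90Sr mice from 3.40 to 4.70. At day 9 its change was 2.03-fold, just past the 2-fold limit, and leaving out any one of 7 of the 12 mice (control replicates 1, 2, 3 and 5, 90Sr replicates 1, 3 and 5) ended that call. At day 7 the call was lost without 90Sr replicate 6 (-0.96). All 5 group means after 90Sr lay below all 5 control means for Irf3 (highest 5.10 against lowest 5.87) and for Irf9 (4.2 against 5.07).

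Irf1, an interferon gamma induced activator that also governs T cell and natural killer cell development, was called lower at days 4, 7 and 9. Its log2 signal at day 4 was 6.37, 6.10, 6.74 and 6.2 in controls and 5.10, 4.33, 4.86 and 4.84 after 90Sr. At day 25 control mice ran from 6.19 to 6.97 and 90Sr mice from 3.64 to 6.17, so the groups did not overlap but the 90Sr mice were widely spread. The log2 change was -1.57 ± 0.20 (SE), -1.26 ± 0.21 and -1.02 ± 0.21 at days 4, 7 and 9, with adjusted p values of 3.36e-04, 3.24e-04 and 1.37e-03. At days 25 and 30 it was -1.41 ± 0.38 and -1.14 ± 0.29, with adjusted p values of 5.41e-03 and 3.91e-03, and the gene was over 2-fold lower without reaching an unadjusted p of 0.001. The call at day 9 was lost on leaving out any one of 4 of the 12 mice (control replicates 1 and 5, 90Sr replicates 1 and 3), and calls were gained without 90Sr replicate 2 at day 25 (-1.61) and without control replicate 4 at day 30 (-1.34).

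Irf2 competes with Irf1 for the same elements and limits the interferon response. With median scaling its changes over all mice stayed under 2-fold, and without control replicate 4 that of day 4 was called (-1.02). It was also called at days 25 and 30 with plain background subtraction (-1.13 and -1.39) and at days 4, 7 and 25 with spike-in scaling (-1.34, -3.09 and -1.34), both tried after the data were seen. The median-scaled changes of Irf2 were -0.86 ± 0.19 (SE), -0.72 ± 0.12, -0.18 ± 0.21, -0.64 ± 0.17 and -0.49 ± 0.18 at the 5 days in order, with limma adjusted p values of 4.83e-03, 3.22e-04, 0.527, 5.60e-03 and 0.0265. At day 9 the control mice, which ran from 3.76 to 4.11, were the lowest control group, and the 90Sr mice ran from 3.05 to 4.10 across them. Control mice of different days differed for Irf2 (adjusted p = 7.53e-03, as for 55.9% of all genes), with means from 3.92 at day 9 to 4.56 at day 25.

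Irf7, the interferon-inducible factor that amplifies type I interferon production, was, like Irf2, called at no day with median scaling. Its change was positive at days 4 and 30 and negative at days 7, 9 and 25. At day 4 its log2 signal was 7.07, 7.23, 7.16 and 7.02 in control mice and 7.41, 7.84, 7.12 and 7.60 in 90Sr mice. At day 7 controls ran from 7.32 through 7.81 to 8.01 and 90Sr mice from 6.78 through 7.02 to 7.54. Thus 3 of 4 90Sr mice lay above every control mouse at day 4, and 5 of 6 lay below every control mouse at day 7.
At day 9 controls ran from 6.74 to 8.10 with a median of 7.36 and 90Sr mice from 6.15 to 7.82 with a median of 7.42. At day 25 the values were 7.32 to 7.69 with a median of 7.42 and 6.06 to 7.37 with a median of 6.78. At day 30 they were 5.38 to 7.07 with a median of 6.77 in controls and 6.81 to 7.42 with a median of 7.20 after 90Sr, and 5 of 6 90Sr mice lay above every control mouse.
The log2 change was 0.37 ± 0.16 (SE), -0.66 ± 0.16, -0.13 ± 0.28, -0.69 ± 0.21 and 0.61 ± 0.26 at the 5 days in order, with limma adjusted p values of 0.0803, 3.40e-03, 0.751, 0.0125 and 0.0536. The change differed between days (F test of the interaction, adjusted p = 5.14e-03, passed by 22.6% of all genes), which held for none of the other 6 genes (adjusted p from 0.163 to 0.998). The control mice alone also differed between days (adjusted p = 7.32e-04), with means from 6.57 ± 0.64 (SD) at day 30 to 7.72 ± 0.29 at day 7. Ordered by mean, control and 90Sr groups were intermixed along this range, and most neighbours differed by less than their SDs. The sign at days 4 and 30 depended on the scaling, being positive with the median and the 75th percentile, and negative with spike-in scaling (-0.10 and -0.09) and, at day 30, with plain background subtraction (-0.44), 2 alternatives tried after the data were seen. With normexp background correction, an alternative whose fit was poor on 20 of the 56 arrays, it was -1.20 at day 4 and 1.39 at day 30. Irf7 was called lower at days 7 and 25 with plain background subtraction (-1.03 and -1.24) and with spike-in scaling (-3.02 and -1.39).

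**Figure D2:**
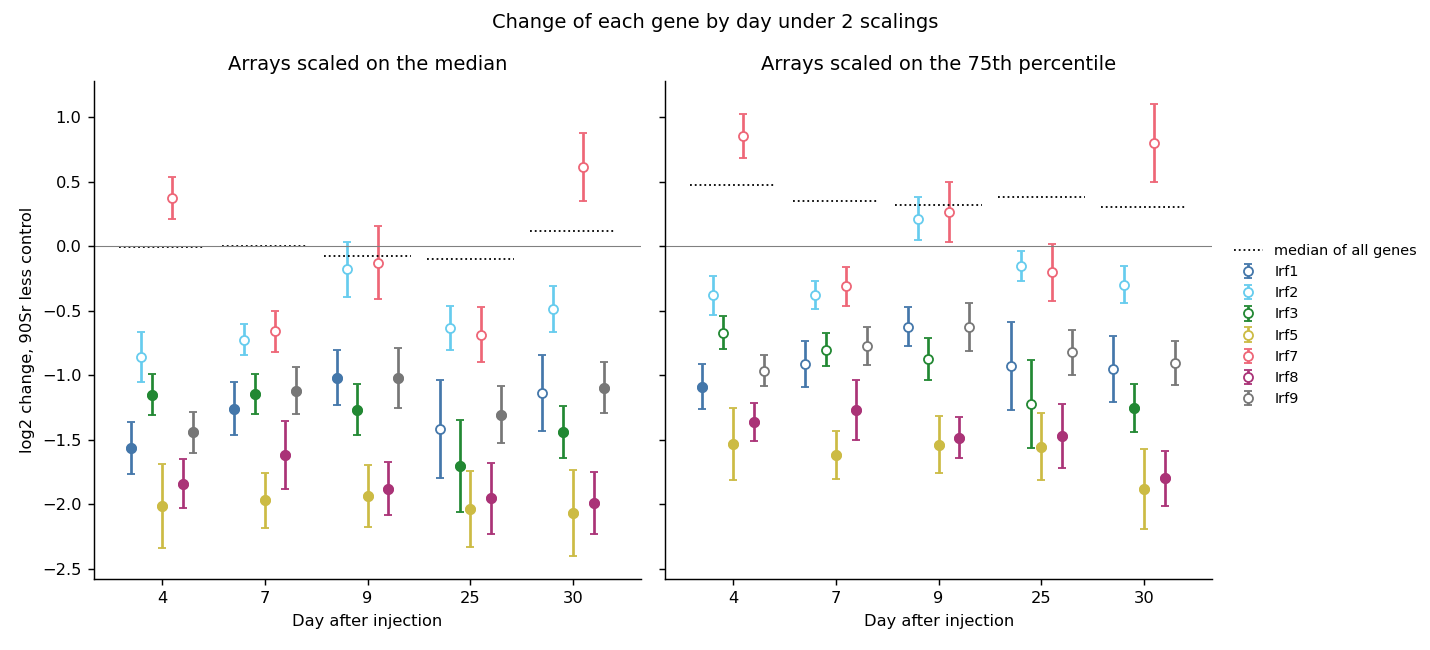
Log2 change between 90Sr and control mice (vertical axis, mean ± SE) of 7 genes at each day (horizontal axis), with arrays scaled on the median at the left and on the 75th percentile at the right; filled points are called and dotted lines are the median of all genes. Irf5 and Irf8 are filled at all 5 days in both panels, and Irf7 lies above the other 6 genes at days 4 and 30.

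On the slides that held 2 control and 2 90Sr mice, the direction was the same as in the whole day for every gene at days 7, 9, 25 and 30, but the size was not. The within-slide change of Irf8 was -2.07, -1.88, -1.13 and -1.62 at these days, against -1.62, -1.88, -1.95 and -1.99 over all mice, so it was larger at day 7 and smaller at days 25 and 30. For Irf5 it was -2.16, -1.91, -1.27 and -1.30, for Irf3 -1.32, -1.18, -0.84 and -1.20, for Irf9 -1.48, -1.10, -0.66 and -0.92, for Irf1 -1.48, -1.18, -0.34 and -0.65, for Irf2 -0.70, -0.46, -0.64 and -0.33, and for Irf7 -1.05, -0.22, -0.93 and 0.46. With slide as a fixed block these 4 mice alone carry the comparison, and 2, 0 and 0 of the 7 genes were called at days 9, 25 and 30. With slide as a random block, Irf5 and Irf8 remained called at days 7, 9, 25 and 30, whereas Irf9 lost its call at day 9 and Irf3 at day 25. With scan day as a block, tried after the data were seen, 6 control and 2 90Sr mice carry the comparison. At day 7 the same 5 genes were called, with Irf8 at -2.18 and Irf5 at -2.21. At day 30 Irf8 (-1.56) and Irf3 (-1.16) were called, and Irf5 (-1.43) and Irf9 (-0.94) were not. The part of slide and scan day in these differences was not tested.

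Differences between 2 members in the same array do not depend on a scaling that shifts all signals of an array alike, such as the median. They do move with background correction and quantile normalisation. At day 30 Irf5 and Irf8 changed by -2.42 and -2.89 with plain background subtraction, against -2.07 and -1.99 in the values used here. Over 21 pairs and 5 days, 66 of the comparisons passed a two-sided exact permutation test over the mice (Benjamini-Hochberg adjusted over all of them), for which the smallest p is 0.0286 with 4 against 4 mice and 2.16e-03 with 6 against 6. Irf7 less Irf8 rose at all 5 days, from 1.08 in control to 3.30 in 90Sr mice, 1.35 to 2.31, 1.38 to 3.13, 1.0 to 2.27 and 0.61 to 3.21. The change of this difference was 2.22, 0.96, 1.75, 1.27 and 2.60, with adjusted exact p values of 0.0462, 0.0170, 7.58e-03, 0.0202 and 7.58e-03.
Irf2 likewise gained on Irf5 by 1.15 to 1.75 and on Irf8 by 0.89 to 1.70 on the log2 scale, and passed at 5 days against both. Irf2 less Irf7 changed by -0.06, -0.05 and 0.05 at days 7, 9 and 25 and did not pass. At days 4 and 30 it changed by -1.23 and -1.10 and passed. Irf8 fell relative to Irf9 at all 5 days, with changes of -0.89 to -0.40, and Irf5 relative to Irf9 changed by -0.97 to -0.57, passing at 4 days.
In contrast, Irf5 and Irf8 passed at no day, with a change of their difference between -0.35 and -0.05, and neither did Irf1 against Irf3 (-0.42 to 0.30) or Irf1 against Irf9 (-0.14 to 0.00). A pair that passed at no day is described by these ranges and is not shown to change alike.

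**Figure D3:**
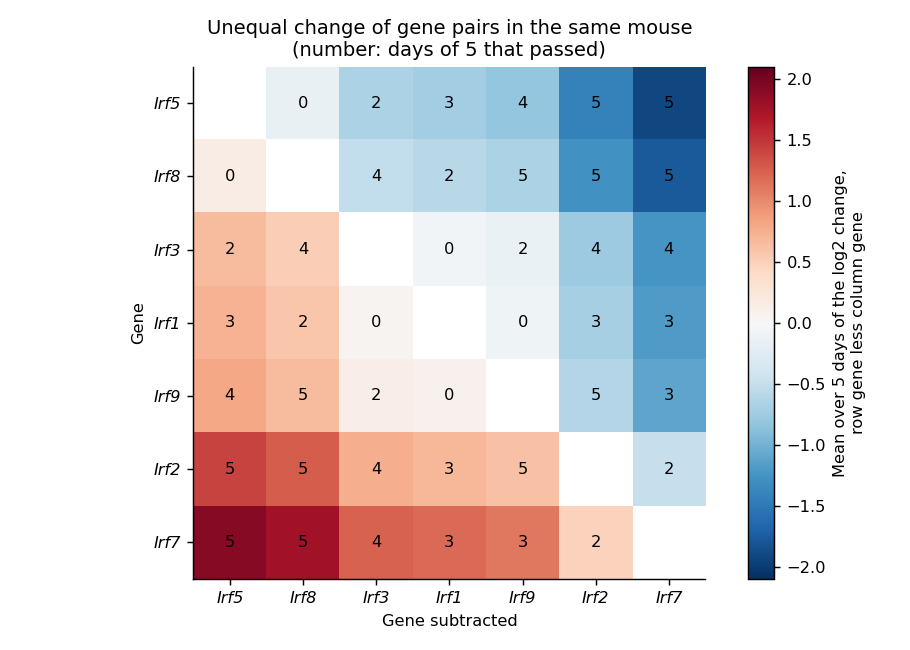
Mean over 5 days of the change, on the log2 scale, in the difference between the gene of the row and the gene of the column within arrays (colour), with the number of days of 5 at which the pair passed the exact permutation test. Irf5 and Irf8, which passed at 0 days against each other, passed at 5 days against both Irf2 and Irf7.

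The members were next set against cell type markers in the same array. For each gene and day the mean of 12 B cell, 12 T cell or 12 monocyte markers was subtracted, and 61 of the comparisons over 7 genes, 3 lists and 5 days passed the exact permutation test. Irf8 less the B cell mean was 0.71 in control and 0.77 in 90Sr mice at the first day, then 0.81 and 0.70, 0.78 and 0.79, 1.0 and 0.98, and 0.81 and 0.69. Its change was between -0.11 and 0.06 and passed at no day, with adjusted exact p values from 0.249 to 0.938. Irf5 less the B cell mean changed by -0.46 to -0.04 and passed at 1 day. The 12 markers did not move as one. Pax5 and Cd22 were called at no day, with changes of -0.46 to 1.13 and -0.64 to 0.25, and the other 10 were called lower at 4 or 5 days. Against the mean of those 10, which were picked by their own fall and so give no test, Irf8 changed by 0.15 to 0.40 and Irf5 by -0.20 to 0.32.
Against the T cell markers Irf8 changed by -1.89 to -1.26 and Irf5 by -1.97 to -1.47, and against the monocyte markers Irf8 changed by -1.01 to -0.66 and Irf5 by -1.09 to -0.89, each passing at 5 days. The T cell mean averages markers that moved in both directions. Cd8a was called lower at 2 days (-1.22 to -0.63 over the days), Cd8b1 (1.53) and Cd27 (1.51) were called higher at day 30, and Cd4 ran from -1.24 at day 9 to 1.95 at day 30. The monocyte list was also mixed, since Ccr2, Cx3cr1 and Ly86 changed by -2.50, -2.14 and -2.00 on average over the days and Cd14, Csf1r and F13a1 by 0.70, 0.13 and -0.06. Against the 6 monocyte markers called lower at 3 days or more, again with no test, Irf8 changed by -0.31 to 0.26 and Irf5 by -0.39 to 0.09. Irf1, Irf3 and Irf9 also fell relative to the T cell markers at 5 days, with changes of -1.1 to -0.55, -1.34 to -0.68 and -1.0 to -0.55, and passed at no day against the monocyte markers. Irf7 rose relative to the B cell markers at all 5 days, by 0.85 to 2.49, and relative to the monocyte markers at days 4, 9 and 30, by 1.49, 0.89 and 1.59. Irf2 rose relative to the B cell markers at 5 days, by 0.78 to 1.71. The part of the B cell markers in the fall of Irf5 and Irf8 was not tested beyond these differences.

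**Figure D4:**
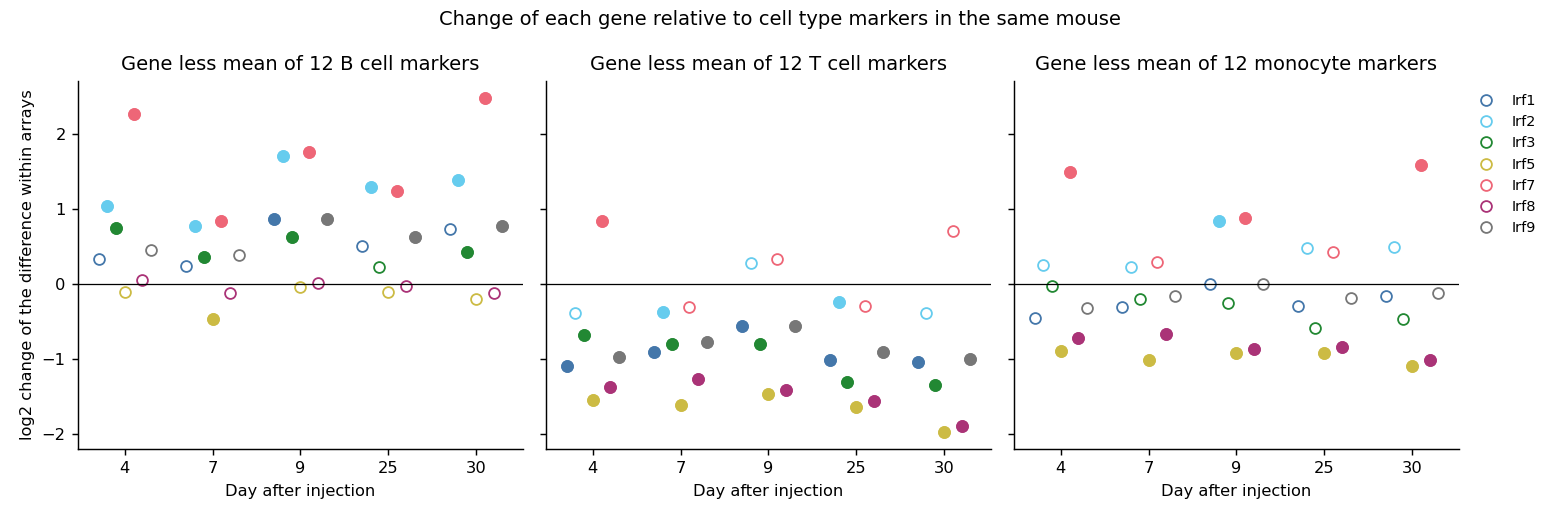
Log2 change, 90Sr less control, of each gene after the mean of B cell, T cell or monocyte markers in the same array was subtracted (vertical axis), by day (horizontal axis), with filled points for comparisons that passed the exact permutation test. Irf8 lies between -0.11 and 0.06 against the B cell markers and is filled below 0 at all 5 days against the other lists.

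The genes whose signal was most like each member over the 56 arrays are given as a description, since the points share the treatment and the brightness of the arrays. For Irf8 these were Napsa, H2-Ab1, an MHC class II chain, and Uvrag, with Pearson r of 0.984, 0.983 and 0.982, and 0.927, 0.912 and 0.892 after group means were taken out. For Irf5 they were Tcf3, Fcgr2b and Coro1a (r of 0.977, 0.974 and 0.974). Irf9 was most like Hprt, Adprm and Lrrc33 (0.980, 0.978 and 0.976), Irf3 most like Dus2l, Rpf2 and Trnau1ap (0.979, 0.973 and 0.967), and Irf1 most like Irgm2, Cyth4 and Tmem185b (0.960, 0.957 and 0.957), and Med7 and Eftud1 were among the genes most like Irf2 (0.903 and 0.891).
Irf7 had no neighbour as close. The nearest were Lgals9 and the interferon-stimulated gene Ifit1, with r of 0.858 and 0.795 over the 56 arrays and 0.799 and 0.669 after group means were taken out, followed by an unnamed probe at 0.762.

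The wider interferon pathway was described with 6 lists of 115 genes, of which 106 were tested. Of these, 39, 37, 33, 46 and 33 were called lower at the 5 days in order, or 36.8%, 34.9%, 31.1%, 43.4% and 31.1%. The shares of all genes called lower were 17.3%, 12%, 13.7%, 19.7% and 16.1%. Called higher were 0, 0, 2, 0 and 10, where 2.09%, 2.59%, 4.39%, 5.63% and 15.5% of all genes were called higher. Their median change was -0.74, -0.74, -0.69, -0.97 and -0.68. With the 75th percentile 21, 13, 12, 19 and 26 were called lower and 2, 1, 8, 5 and 12 higher. Of all 18796 genes, 1096, 653, 886, 1022 and 2262 were called lower with that scaling and 2562, 2039, 2284, 4005 and 3833 higher.

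Among other genes of the IRF family, Irf4, which drives plasma cell and germinal centre programmes, was called lower at all 5 days, with log2 changes of -2.48, -1.81, -2.09, -2.30 and -3.32 (SE 0.26 to 0.44, adjusted p at most 6.83e-04). Its probe was well above background on 28 of 28 control arrays but on 10 of 28 90Sr arrays, so the size of its fall is uncertain, and with plain background subtraction it was smaller (-1.13 to -2.32). The corepressors Irf2bp1 and Irf2bp2, which bind Irf2, were called lower at 3 and 1 days, and the gene of like name Irf2bpl at 4. With the 75th percentile Irf2bpl was called at days 4 and 30, Irf2bp1 at days 9 and 25 and Irf2bp2 at no day. The Irf2bp1 probe was well above background on 9 of 28 90Sr arrays, and plain background subtraction called it at no day, so its values are uncertain too.

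Of 21 sensors, adaptors and kinases that activate Irf3, Irf5 and Irf7, 6, 5, 4, 8 and 5 were called lower at the 5 days, which is 28.6%, 23.8%, 19%, 38.1% and 23.8%, against 17.3%, 12%, 13.7%, 19.7% and 16.1% of all genes. At day 30 2 of them, or 9.52%, were called higher, a smaller share than the 15.5% of all genes. Unc93b1, the chaperone that delivers nucleic acid sensing Toll-like receptors to endosomes, was called lower at all 5 days, with changes of -2.18, -1.82, -1.94, -1.89 and -1.79 (SE 0.18 to 0.27). Tmem173, which encodes the adaptor STING, changed by -1.52, -1.32, -1.43, -1.75 and -1.43, and Ddx58, which encodes the RNA sensor RIG-I, by -1.58, -1.19, -1.01, -1.37 and -1.31, both called at all 5 days. Traf3, a ubiquitin ligase of both routes, was called at 4 days. With the 75th percentile Unc93b1 kept its calls at all 5 days and Tmem173 lost that of day 7 (-0.97). Ddx58 was then called at days 4 and 30 only and Traf3 at day 4 only. With scan day as a block, Unc93b1 (-1.50) and Ddx58 (-0.98) were not called at day 30, and Tmem173 (-1.37) was.
The endosomal RNA receptors Tlr7 and Tlr8 were called higher at day 30, by 2.78 and 2.15 on the log2 scale, against 0.35 and 0.70 at day 4. Their changes differed between days (adjusted p = 7.30e-03 and 9.16e-04). They were called higher at day 30 with median, 75th percentile and spike-in scaling, quantile normalisation and plain background subtraction, with changes of at least 1.72 for Tlr7 and 1.13 for Tlr8. With scan day as a block, which leaves 2 90Sr mice to compare, they changed by 1.96 and 1.63 and were not called. At earlier days Tlr8 was called higher at days 7 and 25 with the 75th percentile (1.01 and 1.54) and at day 25 with quantile normalisation (1.48), and spike-in scaling called Tlr7 lower at day 7 (-1.95). At day 30 the chaperone and these receptors stood on opposite sides of 0 in the same blood.

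Of the genes that carry the interferon signal to Irf9, Stat2, which joins it in that complex, was called lower at all 5 days, with changes of -2.12, -1.56, -1.23, -1.84 and -2.02 (SE 0.17 to 0.26). The phosphatase gene Ptpn6 was called lower at all 5 days (-1.52 to -2.02), the kinase gene Tyk2 at 4 and the STAT inhibitor gene Pias1 at 3. With the 75th percentile Ptpn6 kept its calls at all 5 days and Stat2 lost that of day 9 (-0.84). Tyk2 was then called at day 25 only and Pias1 at days 4 and 30. With scan day as a block, Ptpn6 was not called at day 30 (-1.49). Among receptors, Ifngr2 and Ifnar1, chains of the interferon gamma and type I interferon receptors, were each called lower at 4 of the 5 days, with changes of -1.25 to -1.69 and -0.94 to -1.60.

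Interferon-stimulated genes, the targets of these factors, were 52 of the tested genes. They were called lower in 17, 20, 15, 23 and 15 cases and higher in 0, 0, 2, 0 and 6. The shares called lower were 32.7%, 38.5%, 28.8%, 44.2% and 28.8%, above those of all genes (17.3%, 12%, 13.7%, 19.7% and 16.1%). The 6 called higher at day 30 are a smaller share of the 52 than the 15.5% of all genes called higher then. Gbp3, a guanylate binding protein gene, Oas2, an oligoadenylate synthetase gene, and Psmb8, an immunoproteasome subunit gene, were called lower at all 5 days, with changes of -1.65 to -1.94, -1.34 to -1.82 and -1.20 to -1.79. With the 75th percentile Gbp3 lost its call at day 25, Oas2 at days 7 and 9 and Psmb8 at day 4. With scan day as a block, which leaves 2 90Sr mice, Gbp3, Oas2 and Psmb8 were not called at day 30 (-1.34, -0.86 and -1.35). Tor3a was called lower at 4 days (-1.67 to -2.65) and was well above background on 20 of 28 90Sr arrays.
At day 30 the antiviral genes Rsad2, Oas3 and Isg20 were called higher, with changes of 1.17, 1.51 and 1.23, as were Trim25 (1.20), Sp110 (1.39) and Sp100 (1.02). Rsad2 and Trim25 were also called higher at day 9 (1.20 and 1.02), where spike-in scaling turned both below 0 (-0.11 and -0.28). With the 75th percentile all 6 genes were called higher at day 30 (1.21 to 1.69), and all but Sp100 at day 9 (1.14 to 1.59). None of these 6 genes was called higher at day 30 with plain background subtraction (0.02 to 0.35) or spike-in scaling (0.33 to 0.81). With scan day as a block, which leaves 2 90Sr mice, none of them was called at day 30 either (0.71 to 1.21). Rsad2, Isg20, Trim25 and Sp110 were not called with quantile normalisation, under which no interferon-stimulated gene was called higher at day 9. At day 9 the 75th percentile called 6 interferon-stimulated genes higher and 4 lower, where 2284 and 886 of all genes were.

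The last list held factors that work with Irf8 and Irf5 in B cells and myeloid cells. Of 12 tested, 6, 6, 6, 7 and 6 were called lower and none higher, so the share called lower was 50% or 58.3%, against 12% to 19.7% of all genes. Spib, an Ets factor that binds DNA together with Irf4 and Irf8, changed by -2.39, -1.72, -2.27, -2.42 and -2.38 (SE 0.20 to 0.33). Tcf3, the E protein of early B cells, changed by -1.46 to -2.04, Bcl6, the germinal centre repressor, by -1.14 to -2.07, and Ikzf1, which encodes Ikaros, by -1.09 to -1.52, all called at 5 days. With the 75th percentile Spib and Tcf3 kept these calls, whereas Bcl6 was called at days 4 and 25 only and Ikzf1 at day 30 only. With scan day as a block, which leaves 2 90Sr mice, Bcl6 (-0.89) and Ikzf1 (-1.14) were not called at day 30, and Spib and Tcf3 were. Over the same mice the 12 B cell markers had a mean between 4.63 and 5.69 in controls and between 2.81 and 4.59 after 90Sr, and their part in these changes was not tested.

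**Figure D5:**
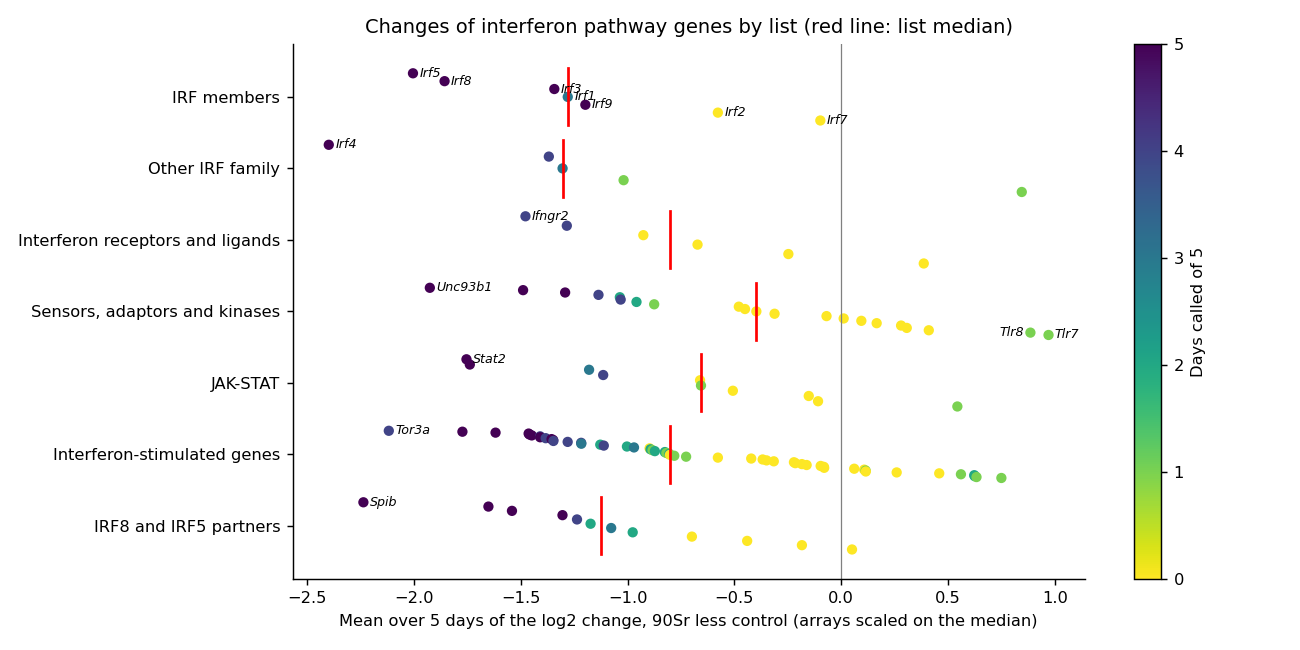
Mean over 5 days of the log2 change between 90Sr and control mice (horizontal axis) of each tested gene in 7 lists (rows), coloured by the number of days at which it was called, with a red line at each list's median. All 7 medians lie below 0 with arrays scaled on the median, and Tlr7 and Tlr8 are the genes farthest above 0.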

How the data were processed

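Whole blood RNA of 56 mice, stabilised in PAXgene solution at collection, was reduced in globin transcripts, labelled with Cy3 and hybridised to 1-colour Agilent arrays (1 array per mouse, 14 slides of 4). Per the file headers, the deposited intensity values are Feature Extraction 11.5.1.1 processed signals (10.7 in the submitters' notes), background-subtracted by the authors' software, with flags of 0 or 1 for each spot (unit given as another value). The authors' processed log2 table was used as an alternative only. Here log2 signals were centred on each array's median over 43020 non-control spots, replicate spots were averaged, and probes that were flagged as non-uniform or that failed to exceed background on 25% of the arrays or more were dropped, leaving 18796 genes at 1 probe each (highest mean). The methods' further filter on variation was applied as an alternative. limma 3.58.1 in R 4.3.3 compared control and 90Sr mice of each day, with Benjamini-Hochberg adjustment over all genes, and a fit of all 10 groups gave the F tests. Marker and pair differences used two-sided exact permutation tests. The precision is limited by the number of arrays. Tested on simulated data for 18796 genes, the daily fits recovered 72% to 93% of 2.5-fold and 80% to 95% of 4-fold changes. The members, lists and tests were chosen with earlier results of these data known. Named genes were the 7 members, in each pathway list up to 4 genes with the largest mean change among those called and those called against the list's direction, and the 3 most correlated genes per member. Some genes this rule chose are not reported here. Alternatives were other scalings (5 E1A spike-in probes among them), background corrections, filters, blocks for slide, scan day and replicate number, and leaving out each mouse. The files hold no columns of other samples.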

Additional observations from a re-analysis of the deposited data

Results flagged for a closer look

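In 6 of 70 groups of 4 or 6 mice, 1 mouse lay far from the others by Dixon's criterion, which chance alone meets in about 1 in 20 groups. Among control mice, Irf3 was 5.48 in replicate 4 of day 30 (next 6.05) and Irf7 was 7.69 in replicate 1 of day 25 (next 7.43). Among 90Sr mice, Irf3 was 2.69 in replicate 4 of day 25 (next 4.31), Irf7 was 7.54 in replicate 2 of day 7 (next 7.06), Irf8 was 3.44 in replicate 6 of day 7 (next 4.68) and Irf9 was 4.08 in replicate 1 of day 4 (next 3.71). The 90Sr effect on Irf7 differed between days by a test of the difference itself (limma, adjusted p = 5.14e-03).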

How the results depend on the processing

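With the 75th percentile in place of the median, the members called at days 4, 7, 9 and 25 numbered 3, 2, 2 and 2 and the pathway genes 23, 14, 20 and 24. Calls over every probe and day, in either direction and with the dim Irf1 probe included, were 14 in place of 25. With this scaling 2 members differed between days, and Irf2 and Irf7 at day 9 turned to 0.21 and 0.27. Quantile normalisation gave 3 and 2 members at days 9 and 25, 18, 18 and 20 pathway genes at days 7, 9 and 25, 2 members that differed between days, and 0.17 for Irf2 at day 9. Slide as a fixed block, with 4 informative mice a day, gave 2, 0 and 0 members and 11, 0 and 3 pathway genes at days 9, 25 and 30, and slide as a random block left 1 member that differed between control days. Scan day as a block, added after seeing the data, gave 2 members and 7 pathway genes at day 30.

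Normexp background correction called 0, 0, 1, 0 and 0 members and 0, 0, 2, 0 and 3 pathway genes at the 5 days, 0 members between days and between control days, and 32 pairs; Irf7 turned to -1.20 at day 4 and 0.41 at day 25, and Irf2 to 0.19 and 0.18 at days 25 and 30. Its fitted background mean was under -100 on 20 of 56 arrays, whose mean signals less background rarely fell below 0, and the array medians after it ran from 75.5 to 1455. Plain background subtraction, added after seeing the data, gave 7 members at day 25 and -0.44 for Irf7 at day 30. Spike-in scaling, also added then, moved the median of all genes to between -2.37 and -0.48 and gave 7 members at day 25 (and all but 1 of the 106 pathway genes lower at day 7), 4 members between days, 7 between control days, and -0.10 and -0.086 for Irf7 at days 4 and 30. The filter on variation left 5 members, without Irf2 and Irf7, so 0 differed between days and between control days; the authors' values held 6, without Irf7, and gave 0 and 1. Averaging its dim probe in turned Irf1 to 0.31 at day 9 and 0.017 at day 25.

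The replicate numbers pair no mice (28 pairs, correlations of -0.28 to 0.32, 8 over 0.1, own number best in 8); a replicate block gave 3 members at day 9 and otherwise moved no count of members or pathway genes by over 1.5 times. Leaving out 1 mouse gave 5 to 6, 4 to 5, 3 to 5, 4 to 5 and 4 to 5 members at the 5 days, 37 to 44, 32 to 39, 32 to 43, 39 to 52 and 36 to 51 pathway genes, 1 to 2 members between days (2 without replicate 1 of the day 9 90Sr mice), 2 between control days in all 56 cases, 64 to 69 pairs and 46 to 65 marker comparisons. Day 9 fell to 3 members without control replicate 1 or 5 or 90Sr replicate 1 or 3, and Irf7 at day 9 ran from -0.25 to 0.092, turning to 0.018 without control replicate 2 and 0.092 without 90Sr replicate 1. Where no cause is given, the cause was not tested.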
